A study of Ovis aries with 6 samples.

Results

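The antimicrobial protein genes lysozyme (LYZ), lysozyme 2a (LOC443321), lactoferrin (LTF), the cathelicidin CATHL3 and the sheep beta-defensin SBD2 were compared between Aohan fine wool sheep and the small tail Han breed, in skin of the body side. These 5 genes were read by 6 of the 15008 probes of an Agilent sheep gene expression array. LYZ, LTF and CATHL3 are among the 476 genes that carry a probe with a RefSeq mRNA accession. LOC443321 was read by the probe of the lysozyme 2a mRNA M32495. No tested probe carried a RefSeq mRNA of SBD2, so SBD2 was read by A_70_P048551, a probe of the expressed sequence tag EE767406 that the study's probe annotation ties to SBD2. The genes were chosen by their log2 signals in these same arrays, that is by the breed difference itself. Their differences are therefore a description with no p-value, and where it is said whether one of their probes passed the threshold used for all probes, this describes the arrays and supports nothing.

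These genes encode proteins that kill or starve microbes at body surfaces. Lysozymes cut the peptidoglycan of bacterial cell walls, lactoferrin binds iron that bacteria need, and beta-defensins and cathelicidins are short cationic peptides that disrupt bacterial membranes. Lactoferrin and cathelicidins are stored in granules of neutrophils, lysozyme is also made by macrophages and by secretory glands, and beta-defensins are made mainly by epithelial cells, including keratinocytes of the skin.

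RNA came from 3 Aohan fine wool sheep and from 3 of the small tail Han breed, all 12 months of age and reared in pens, with 1 Cy3-labelled array for each animal. Each breed was represented by 1 ram and 2 ewes, and the labels give no sex for a single animal. The 3 sheep of a breed had 1 sire in common, and the scanner read each breed in a separate session, so breed, sire and scan session cannot be told apart. The biopsies held the whole thickness of the skin, and in such bulk RNA fewer cells of a type and less RNA per cell cannot be told apart.

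Signals are given on the log2 scale relative to each array's 75th percentile (0 is the 75th percentile), and changes are Aohan minus small tail Han, each with its standard error (SE) from limma. Between 10731 and 13384 probes were well above background on the Aohan arrays, against 11053 to 12962 on those of small tail Han sheep, and no spot was saturated. Of 12480 probes bright enough to test, 1893 (15.2%) passed a Benjamini-Hochberg adjusted p of 0.05 in limma, with 945 (7.57%) higher and 948 (7.6%) lower in Aohan sheep. The median change over all tested probes was 0.02. Skin genes were present in both breeds. The summed linear signal of 4 wool follicle keratin genes was 523 to 918 times the 75th percentile in Aohan sheep and 607 to 835 times in small tail Han sheep, and none of these genes passed the test.

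LYZ, the gene of the secreted lysozyme, had more signal in every Aohan sheep than in any small tail Han sheep. At A_70_P051226 (NM_001097647), its log2 signal was -2.32, -0.70 and -1.51 in Aohan replicates 1, 2 and 3, against -3.22, -4.44 and -4.18 in small tail Han replicates 1, 2 and 3. The lowest Aohan value lay 0.91 above the highest small tail Han value. The spread was wide within both breeds, with Aohan replicate 2 the highest of its breed and small tail Han replicate 1 the highest of its own. The means were -1.51 ± 0.81 in Aohan sheep and -3.95 ± 0.64 in small tail Han sheep (SD, n = 3 each), a change of 2.44 (SE 0.43), or 5.41-fold. All 6 spots were well above background.

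The second LYZ probe, A_70_P051227, gave almost the same order of animals. Its log2 signal was -2.34, -0.96 and -1.69 in the Aohan sheep, against -4.64 and -4.45 in small tail Han replicates 2 and 3. The spot of small tail Han replicate 1 bore a pixel non-uniformity mark and was left out. The means were -1.66 ± 0.69 in the Aohan sheep (SD, n = 3) and -4.55 ± 0.14 in the remaining small tail Han sheep (SD, n = 2), a change of 2.88 (SE 0.38), or 7.38-fold. The breeds were 2.10 apart at their nearest values. This gap lacks small tail Han replicate 1, which was the highest of its breed at A_70_P051226. With that array left out, the change at A_70_P051226 was 2.80 (SE 0.41). Over the 5 arrays that both probes share, the probes differed by a root mean square of 0.09 once each was centred on its own mean.

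The size of the change at A_70_P051227 depends on the marked spot and on the processing of the signals. Its processed signal was 1467, the highest of this probe on any array, while its median pixel signal was 288 over a local background of 50.5. On the same array the spot of A_70_P051226 had a processed signal of 248 and a median pixel signal of 292. With the marked spot kept, small tail Han replicate 1 had a log2 signal of -0.65, above all 3 Aohan sheep, and the change was 1.57 (SE 0.93). The authors' normalized values, which hold this spot at 10.38, gave 1.64 (SE 0.97). Computed from median pixel signals with normexp background correction and the marked spot kept, the change was 1.42 (SE 0.28). With normexp and the marked spot left out, it was 1.82 (SE 0.30). At A_70_P051226, which bore no mark, the changes in the same order of settings were 2.42, 2.46, 1.56 and 1.58.

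**Figure D1:**
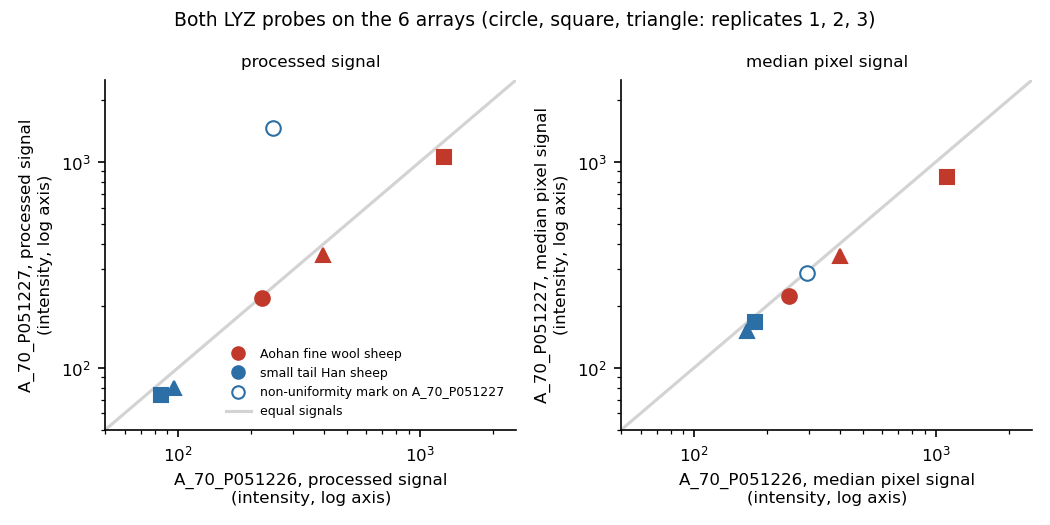
Signal of LYZ probe A_70_P051227 (vertical axis) against LYZ probe A_70_P051226 (horizontal axis) on each array, as processed signal (left) and as median pixel signal (right), in intensity units on log axes. Red symbols are Aohan and blue symbols small tail Han sheep. The open circle is small tail Han replicate 1, whose marked spot stands off the line of equal signals at a processed signal of 1467 but lies on it at a median pixel signal of 288.

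LOC443321 encodes lysozyme 2a, of the lysozyme family that ruminants such as cattle express in the true stomach. Its probe A_70_P016801 had log2 signals of -1.50, -1.27 and -1.50 in the Aohan sheep, against -4.63, -4.10 and -3.55 in the small tail Han sheep. The Aohan animals were nearly alike and the small tail Han animals were more spread, with a gap of 2.04 between the breeds. The means were -1.42 ± 0.14 in Aohan sheep and -4.09 ± 0.54 in small tail Han sheep (SD, n = 3 each), a change of 2.67 (SE 0.27), or 6.37-fold. All 6 spots were well above background. Lysozyme genes are close copies of each other in ruminants, and cross-hybridisation between LYZ and lysozyme 2a transcripts was not tested.

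LTF encodes lactoferrin, the iron-binding protein of milk, tears and neutrophil granules. At A_70_P030196 (NM_001024862), log2 signals were 0.59, 1.08 and 0.56 in the Aohan sheep, against -1.44, -2.23 and -2.03 in the small tail Han sheep. All Aohan values were above the 75th percentile of their array, and all small tail Han values were below theirs. The means were 0.74 ± 0.29 in Aohan sheep and -1.90 ± 0.41 in small tail Han sheep (SD, n = 3 each), a change of 2.64 (SE 0.24), or 6.25-fold. As at A_70_P051226, Aohan replicate 2 and small tail Han replicate 1 were the highest of their breeds.

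CATHL3 encodes a cathelicidin, whose mature peptide is released from a precursor held in neutrophil granules and is proline-rich in cattle. Its probe A_70_P039281 (NM_001009301) had log2 signals of 2.73, 1.98 and 3.77 in the Aohan sheep, against 1.16, 1.53 and 2.07 in the small tail Han sheep. The breeds overlapped, since Aohan replicate 2 was lower than small tail Han replicate 3. The means were 2.82 ± 0.90 in Aohan sheep and 1.59 ± 0.46 in small tail Han sheep (SD, n = 3 each), a change of 1.24 (SE 0.42), or 2.36-fold. Aohan replicate 3 had the highest value, and without it the change was 0.76 (SE 0.32). Without Aohan replicate 2, the lowest of its breed, the change was 1.66 (SE 0.35).

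SBD2 encodes a beta-defensin, a peptide family made mainly by epithelia. It was the single gene of the set with less signal in Aohan sheep. A_70_P048551 had log2 signals of -4.97, -5.33 and -5.29 in the Aohan sheep, against -2.95, -2.07 and -2.29 in the small tail Han sheep. The breeds were 2.02 apart at their nearest values, and the Aohan values lay close together near the floor of the array. The spot was well above background on 2 of 3 Aohan arrays, not on that of replicate 1, and on all 3 small tail Han arrays. Processed signals were 35.1, 50.8 and 28.9 in the Aohan sheep, against 299, 436 and 357 in the small tail Han sheep. The means on the log2 scale were -5.20 ± 0.20 in Aohan sheep and -2.44 ± 0.46 in small tail Han sheep (SD, n = 3 each), a change of -2.76 (SE 0.27), or 6.77-fold lower. The name rests on the annotation of an expressed sequence tag, and whether the probe reads SBD2 alone was not tested.

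**Figure D2:**
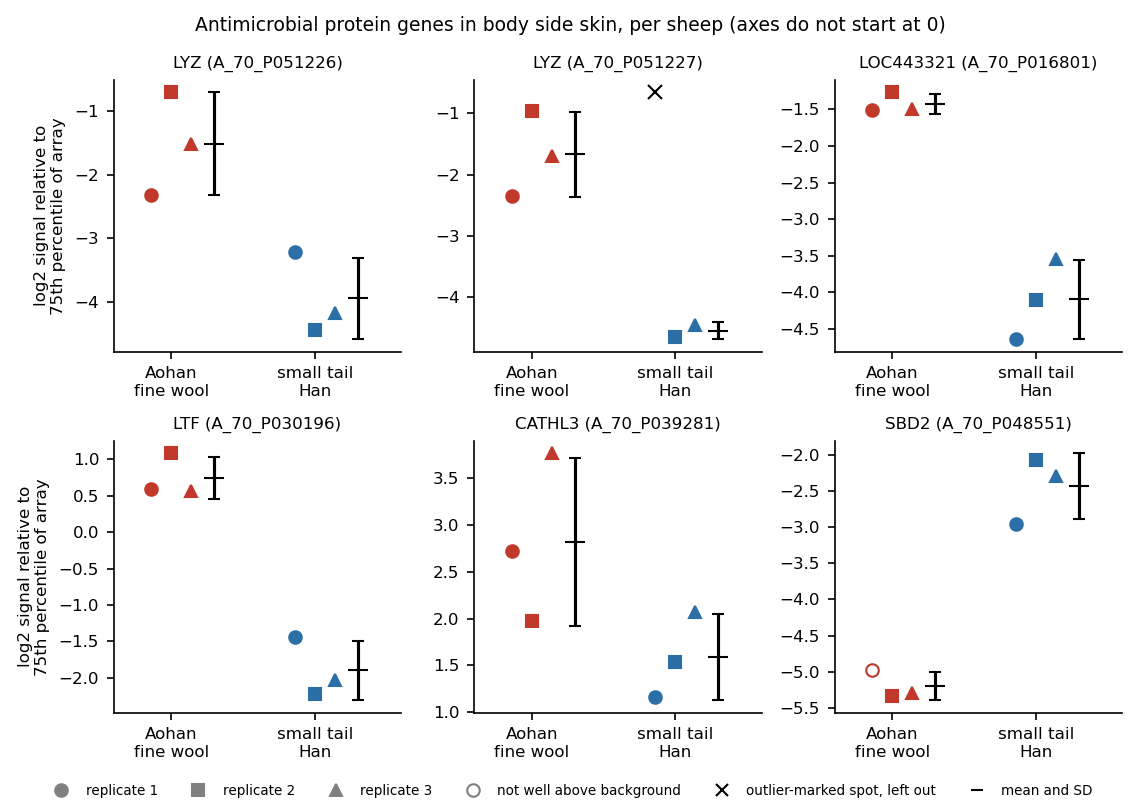
Log2 signal relative to the array's 75th percentile at each of the 6 probes (vertical axes, which do not start at 0), with Aohan fine wool sheep in red on the left and small tail Han sheep in blue on the right of each panel. Each symbol is 1 sheep, bars are the mean and SD, the cross is the marked spot that was left out and the open symbol is a spot not well above background. The breeds do not overlap at LYZ (apart from the cross), LOC443321, LTF and SBD2, and overlap at CATHL3, where Aohan replicate 2 is at 1.98 and small tail Han replicate 3 at 2.07.

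All 6 probes were bright enough to be tested, and 4 of them were well above background on every array. Both LYZ probes, LOC443321 and LTF passed as higher and SBD2 passed as lower in Aohan sheep, while CATHL3 did not pass. Across all tested probes, 7.57% passed as higher and 7.6% as lower. The breeds did not overlap at the same 4 probes higher and 1 lower, and over all tested probes 17.8% did so higher and 16.4% lower in Aohan sheep (34.2% in all). The choice of the genes used these values, so nothing is read from the counts.

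Within a breed the animals kept partly the same order across genes. Aohan replicate 2 was the highest Aohan animal at both LYZ probes, LOC443321 and LTF, and the lowest at CATHL3 and SBD2. Small tail Han replicate 1 was the highest of its breed at A_70_P051226 and LTF, and the lowest at LOC443321, CATHL3 and SBD2. These were also the arrays with the most probes well above background in their breeds, 13384 on that of Aohan replicate 2 and 12962 on that of small tail Han replicate 1. Over 12410 probes, the deviations of these animals from their breed means correlated at 0.47, the highest of all pairs between the breeds. Their order is thus not particular to these genes. The part of array quality in the order of the animals was not tested.

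Likeness between profiles was measured as the root mean square difference of log2 signals over the 6 arrays after each probe was centred on its own mean, where 0 means the same profile. LTF differed from LYZ at A_70_P051226 by 0.38 and lysozyme 2a by 0.76. At A_70_P051227, which leaves out small tail Han replicate 1, LTF differed by 0.30 and lysozyme 2a by 0.45. Lysozyme 2a and LTF differed by 0.52. CATHL3 differed more, by 1.18 from LYZ at A_70_P051226, 0.93 from LOC443321 and 1.07 from LTF. These distances describe 6 animals and include the breed difference that the genes were chosen for.

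Among the other named genes, CFL1 (cofilin, an actin-severing protein) had the profile nearest to LYZ at A_70_P051226 (0.32) and to LTF (0.30), with a change of 2.16 of its own. LOC443321 was nearest to GGTA1, an enzyme that adds terminal galactose to glycans (0.29, change 2.35), then to CXCL8, a neutrophil-attracting chemokine (0.33, change 2.27), and to CD1 (0.49, change 2.29). CXCL8 was also the third nearest to LTF, at 0.35. CATHL3 had no close neighbour below 0.41. Its nearest genes were the hormone receptor FSHR (0.41), the steroid enzyme CYP17A1 (0.45) and ASIP (0.48), the agouti signal of pigmentation. SBD2 was nearest to a probe of SLC2A5, a fructose transporter (0.18, change -2.43), and to KLK1, tissue kallikrein (0.47, change -2.60). The search covered 610 or 611 named probes, on all 6 arrays except for A_70_P051227, which was matched on 5 arrays and was nearest to LTF and CFL1 (0.30 each) and then to ITGB1 (0.40).

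Most other listed genes of antimicrobial defence had no named probe and could not be tested. Of 71 genes on a list of antimicrobial effectors other than the 5 above, 10 had a named probe and were tested, and 1 was higher, 1 was lower and 8 did not pass, beside 7.57% of all tested probes higher and 7.6% lower. The fitted change was below 0 for 8 of the 10 genes and above 0 for 2, with a median of -0.36, beside 0.02 over all tested probes. SLC11A1, a metal transporter of macrophage phagosomes, was higher in Aohan sheep, with log2 signals of -2.28, -2.60 and -2.75, against -3.59, -3.59 and -3.06 in small tail Han sheep. Its change was 0.87 (SE 0.22, adjusted p = 0.0318 in limma with Benjamini-Hochberg adjustment), and its dimmer probe changed by 0.53 without passing (adjusted p = 0.250 in the same limma fit). LOC100125357, an intelectin (ITLN2) that binds microbial sugars, was lower, at -3.31, -4.18 and -4.01 in Aohan sheep, against -2.69, -2.89 and -2.42 in small tail Han sheep. Its change was -1.17 (SE 0.26, limma adjusted p = 0.0203). Neither call is firm, since SLC11A1 no longer passed in 9 of 18 alternatives and LOC100125357 in 7 of 18. The study itself reported ITLN2 as lower by more than 10-fold in Aohan sheep. The LOC100125357 probe was 2.24-fold lower. With the authors' normalized values its log2 change was -1.30, also less than 10-fold. Which probe gave the study's value was not tested.

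The cathelicidins SC5, CATHL1B and BAC5 did not pass at any probe. SC5 had a log2 signal of -3.13 ± 0.18 in Aohan sheep and -2.63 ± 0.16 in small tail Han sheep (SD, n = 3 each), without overlap, and its change of -0.50 did not pass (limma adjusted p = 0.109). CATHL1B changed by -0.23 (limma adjusted p = 0.601), with spots well above background on 2 of 3 Aohan and 2 of 3 small tail Han arrays, and by -0.63 at its dimmer probe (limma adjusted p = 0.445). BAC5 changed by -0.03 (limma adjusted p = 0.958), with 0.26 on its second probe (limma adjusted p = 0.751). Mean log2 signals of CATHL3 were 2.82 in Aohan and 1.59 in small tail Han sheep. Those of BAC5 were -5.21 and -5.17, and those of CATHL1B -5.20 and -4.97. Whether the CATHL3 probe reads CATHL3 alone was not tested. In the sheep reference genome (ARS-UI_Ramb_v3.0), CATHL3 lies among these genes, with CATHL1B before it and BAC5 and SC5 after it. SBD2 lies near SPAG11B.

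Other secreted defence proteins did not pass either. PI3, the elastase inhibitor elafin, changed by -0.65 (limma adjusted p = 0.155, with the marked spot of Aohan replicate 2 left out) and by -0.32 at its other probe, and SLPI, a related protease inhibitor, by 0.27 (limma adjusted p = 0.727). LPO, the lactoperoxidase of milk and saliva, changed by -0.62 (limma adjusted p = 0.484) with signals near background. GNLY, the cytolytic granulysin, changed by -0.07 and SPP1 (osteopontin) by -0.52, with limma adjusted p of 0.909 and 0.312.

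**Figure D3:**
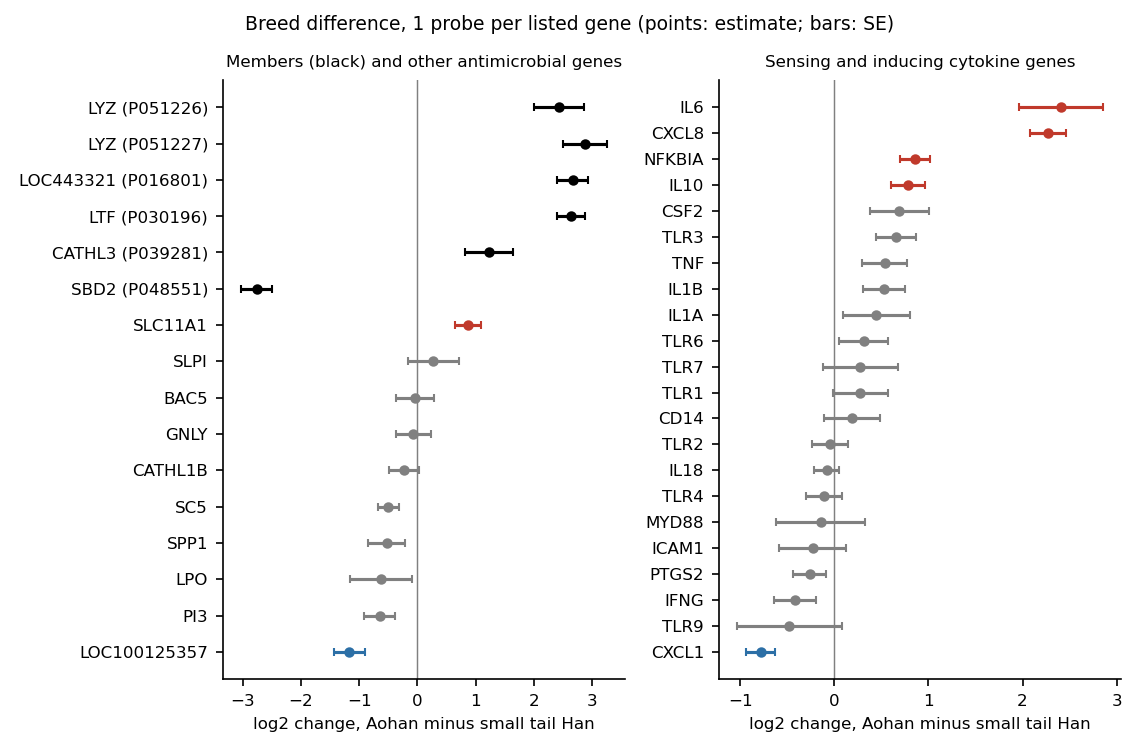
Log2 change, Aohan minus small tail Han (horizontal axes), with the SE of the fit as bars. The left panel holds the 6 probes chosen for their breed difference in black, marked by the end of the probe name, above the 10 other antimicrobial genes, and the right panel holds 22 sensing and cytokine genes, 1 probe per gene. Red genes passed as higher, blue genes as lower and grey genes did not pass, and all grey points of the left panel except SLPI (0.27) lie below 0.

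Genes that sense microbes or induce antimicrobial proteins were examined next. Of 39 listed genes, 24 were on the array and 22 were tested. Of these, 4 were higher, 1 was lower and 17 did not pass, beside 7.57% of all tested probes higher and 7.6% lower. The median change was 0.28, beside 0.02 over all tested probes. CXCL8 (interleukin-8), which draws neutrophils into tissue, had log2 signals of -0.16, 0.43 and -0.12 in Aohan sheep, against -2.36, -2.23 and -2.08 in small tail Han sheep. Its change was 2.27 (SE 0.19, limma adjusted p = 0.000160), and its dimmer probe changed by 4.23. IL6, an acute inflammatory cytokine, was at -4.39, -3.55 and -4.15 in Aohan sheep, against -6.34, -7.31 and -5.68 in small tail Han sheep, where replicate 2 was not well above background. Its change was 2.41 (SE 0.44, limma adjusted p = 0.00876). The small tail Han values of IL6 lay near background, and with normexp correction its change was 0.76 (limma adjusted p = 0.231). NFKBIA, the inhibitor of NF-kappaB that NF-kappaB itself induces, changed by 0.86 (SE 0.16, limma adjusted p = 0.00968). IL10, a cytokine that dampens inflammation, changed by 0.79 at both its probes (SE 0.18, limma adjusted p = 0.0222 at the brighter).

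CXCL1, another neutrophil-attracting chemokine, went the other way. It was at -0.40, -0.57 and -0.28 in Aohan sheep, against 0.18, 0.44 and 0.47 in small tail Han sheep, a change of -0.78 (SE 0.15, limma adjusted p = 0.0118), and its other probe changed by -0.74. The brightest genes of the list that did not pass were IL18, at 0.90 ± 0.06 in Aohan sheep and 0.98 ± 0.10 in small tail Han sheep, and IL1B, at 0.75 ± 0.40 in Aohan sheep and 0.22 ± 0.21 in small tail Han sheep (SD, n = 3 each). CXCL8 passed in all 18 alternatives, while NFKBIA and CXCL1 failed in 3 of 18, IL10 in 4 of 18 and IL6 in 3 of 17.

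Markers of blood cells that carry these proteins also differed in places, beside 7.57% of all tested probes that passed as higher and 7.6% as lower. Of 22 neutrophil markers, 3 had a named probe. ITGB2, the integrin chain of all leukocytes, was higher in Aohan sheep by 0.95 (SE 0.18, limma adjusted p = 0.0108) with 0.70 on its second probe, while ITGAM changed by 0.88 without passing (limma adjusted p = 0.377) and BAC5 by -0.03. The summed linear signal of these 3 genes was 0.725 to 1.00 times the 75th percentile in Aohan sheep and 0.409 to 0.492 times in small tail Han sheep. That sum was mostly ITGB2, with a mean log2 signal of -0.44 in Aohan and -1.39 in small tail Han sheep. ITGAM was at -4.03 and -4.91, and BAC5 at -5.21 and -5.17. Of 18 monocyte and macrophage markers, 7 were tested and 2 were higher, PLAUR by 1.36 (SE 0.36, limma adjusted p = 0.0364) and SLC11A1, while 5 did not pass. Their summed signal was 1.86 to 2.82 times the 75th percentile in Aohan sheep and 1.64 to 1.90 times in small tail Han sheep, so the breeds overlapped. PLAUR no longer passed in 7 of 17 alternatives. The brightest of these markers that did not pass, CD80 and CD86, changed by -0.05 and 0.30.

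Of 17 T cell markers, 7 were on the array and 5 were tested. CD3E (1.11, SE 0.23, limma adjusted p = 0.0135) and CD3D (0.92, SE 0.24, limma adjusted p = 0.0362) were higher in Aohan sheep. Across all tested probes, 7.57% passed as higher. CD28 was well above background on no array. CD3D no longer passed in 8 of 18 alternatives, nor at its other probe (0.73, limma adjusted p = 0.0880), while CD3E failed in 2 of 18 and changed by 1.05 at its other probe. IL2RA and LCK, the brightest that did not pass, changed by -0.08 and 0.34. The summed T cell signal was 6.69 to 8.12 times the 75th percentile in Aohan sheep and 2.86 to 5.05 times in small tail Han sheep. It was mostly CD3E and CD3D, with mean log2 signals of 2.33 and 0.88 in Aohan sheep, against -2.77 for LCK and -2.97 for IL2RA. Among milk protein and secretory gland genes, a source of lactoferrin and lysozyme elsewhere in the body, 7 of 9 on the array were tested at their brightest probes and none passed (CSN2 changed by 0.06 and CSN3 by 0.16), and their summed signal was 1.83 to 3.52 times in Aohan sheep and 1.93 to 2.53 times in small tail Han sheep. A dimmer probe of CSN2 (beta-casein) was at 0.28, -2.47 and -1.91 in Aohan sheep, against -6.75, -6.43 and -5.51 in small tail Han sheep, where it was well above background on 1 of 3 arrays. This dimmer probe passed as higher in Aohan sheep, with a change of 4.86 (SE 0.65, limma adjusted p = 0.00177). No listed plasma cell or B cell marker had a named probe. Of keratinocyte markers, only 2 had one. LOC443313 was higher by 5.28, and by 4.52 at its other probe, and SFN changed by 0.07. The 5 dermal fibroblast, 4 endothelial, 1 melanocyte and 1 red cell genes tested did not pass at their brightest probes in limma, with the melanocyte gene TYR changing by -0.68 (limma adjusted p = 0.0511) and the red cell gene HBB by -0.83 (limma adjusted p = 0.171). Median changes were -0.08 for the fibroblast list, whose brightest genes were DCN and TIMP1, and -0.29 for the endothelial list, with EDN1 brightest. The part of any of these cells in the differences at LYZ, LOC443321, LTF, CATHL3 and SBD2 was not tested.

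**Figure D4:**
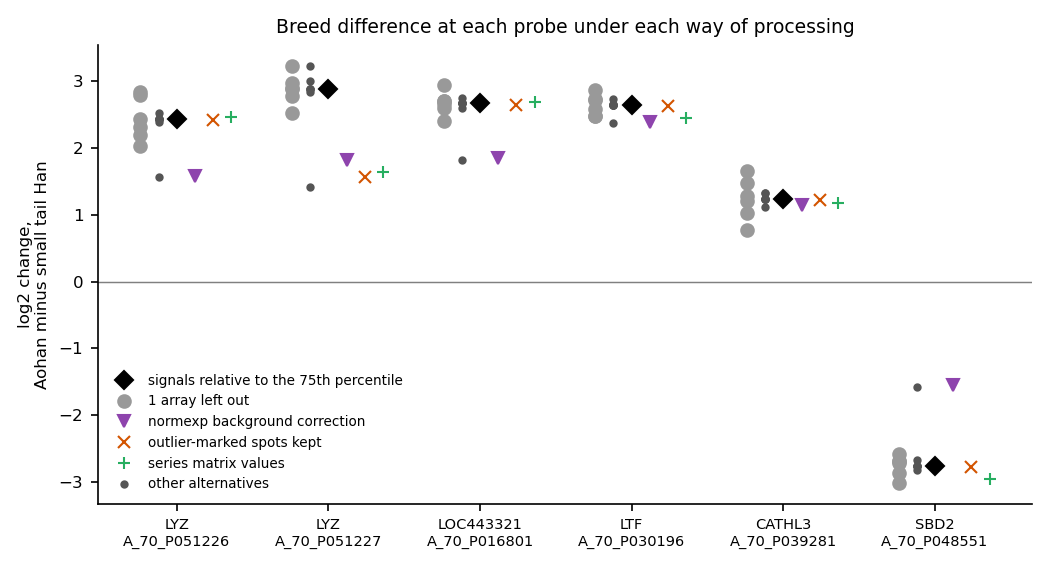
Log2 change, Aohan minus small tail Han (vertical axis), at each of the 6 probes under each way of processing, with the value reported here as a black diamond. Grey circles leave out 1 array each, and coloured symbols mark normexp background correction, outlier-marked spots kept and the authors' normalized values. All values at the first 5 probes lie above 0 and all at SBD2 below 0. The change at SBD2 was smallest after normexp correction. At both lysozymes it was smallest after normexp correction with outlier-marked spots kept, drawn among the dots of other alternatives.

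The direction at each of the 6 probes was the same in every alternative that gave a value. LTF kept its size best, with changes of 2.37 to 2.87 over 17 alternatives. LYZ at A_70_P051226 ran over 1.56 to 2.84, LOC443321 over 1.82 to 2.95, CATHL3 over 0.76 to 1.66 and SBD2 over -3.02 to -1.56. As a description only, since CATHL3 was chosen on these values, it passed the threshold without Aohan replicate 2, after quantile normalization, after normexp correction, with the authors' normalized values and with the replicate block, and not in the other alternatives on which a limma fit was made.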

How the data were processed

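Cy3 arrays of 6 sheep were analysed. The deposited spot intensity values came from Agilent Feature Extraction, version 10.5.1.1 in headers and labels, whereas the study's methods name another version. The deposited series matrix gives log2 values, brought by the authors to a common scale (median 8.31 in every column). After removal of control and outlier-marked spots, processed intensities were put on the log2 scale, set relative to the array's 75th percentile and averaged per probe. A probe needed a well-above-background flag on 3 or more of the 6 arrays and 2 values per breed to be fitted with limma 3.58.1 in R 4.3.3 (intensity trend, two-sided, Benjamini-Hochberg over all tested probes) and checked on simulated data. Animals are the replicates, and 3 arrays per breed limit the precision. RefSeq accessions named 734 of 758 probes through the reference table (ARS-UI_Ramb_v3.0). A gene was represented by its brightest probe. The rule for naming genes from the 13 lists was up to 4 genes of smallest p among those that passed and the 2 brightest that did not, with every gene of the antimicrobial list. Lists without a call are given mostly by counts, and CD28 and second probes were added where a value bears on the text. The 3 most alike named probes per gene are given as values. Genes and lists were chosen with earlier results of these data known. Alternatives were quantile normalization, normexp (offset 50, on median signals, the only spot signals deposited with a matching background), the series matrix, other filters and percentiles, no trend, a replicate block, the methods' t-test, each array left out, and outlier-marked spots kept, which was chosen after seeing the data. Plots used matplotlib 3.10.9.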

Additional observations from a re-analysis of the deposited data

How the results depend on the processing

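No direction at the 6 probes turned under any alternative. With normexp the change was 1.58 and 1.82 at the LYZ probes A_70_P051226 and A_70_P051227, 1.85 at LOC443321 and -1.56 at SBD2. With normexp and outlier-marked spots kept it was 1.56, 1.42, 1.82 and -1.58 at the same probes. With the marked spots kept it was 1.57 at A_70_P051227, and with the series matrix 1.64. Leaving out 1 array gave 2.03 to 2.84 at A_70_P051226, 2.53 to 3.22 at A_70_P051227, 2.40 to 2.95 at LOC443321, 2.48 to 2.87 at LTF, 0.76 to 1.66 at CATHL3 and -3.02 to -2.58 at SBD2. The cause of these shifts was not tested, apart from the marked spot. The 1893 probes that passed became 1234 with the replicate block, 712 with the methods' t-test after adjustment (3234 before it), and 768 to 2254 with 1 array left out (1087 without Aohan replicate 3, 768 and 941 without small tail Han replicates 2 and 3). Of the 6 probes, 2 passed as higher with the adjusted t-test and 4 to 5 with 1 array left out, and 0 as lower when a signal well above background was required on all 6 arrays, which leaves SBD2 untested. With 1 array left out it was 1 throughout. Of the antimicrobial list, 0 passed as higher with normexp (marked spots dropped or kept), the replicate block and the adjusted t-test, 0 to 1 with 1 array left out (1 only without small tail Han replicate 3), and as lower 0 with the adjusted and 2 with the unadjusted t-test, and 0 to 1 with 1 array left out (0 without Aohan replicates 2 or 3 or small tail Han replicates 2 or 3). Of the sensing list, 1 passed as higher with the adjusted t-test and 3 to 5 with 1 array left out, and as lower 2 with normexp (marked spots dropped or kept), 0 with the adjusted t-test and 0 to 1 with 1 array left out (0 without small tail Han replicates 2 or 3). Replicate numbers do not pair the animals. Deviations from the breed mean correlated at -0.22, -0.37 and 0.28 between same-numbered animals over 12410 probes. With the replicate block the change at A_70_P051227 was 3.22, the same as without Aohan replicate 1. The same-numbered small tail Han spot was left out at this probe, so the block takes nothing from Aohan replicate 1. SBD2 in Aohan sheep is limited by signals near background. The lysozymes also had low signals in small tail Han sheep. Processed signals at A_70_P051226 were 84.5 and 96.6 in small tail Han replicates 2 and 3.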
